A study of Mus musculus with 4 samples.

Results

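The CD300, SIRP and related inhibitory receptor genes of tumour myeloid cells were followed as a set of 10: Cd300a, Cd300e, Cd300ld, Cd300lf, Cd300lb, Sirpa, Pirb, Lilrb4a, Siglece and Siglec1. They were picked by symbol, and all 10 were among the 13976 genes of the expression table. The RNA was from 4 myeloid populations sorted out of EO771 mouse tumours (EO771 is a mammary carcinoma line), with 1 library each. These were the conventional dendritic cells labelled CD103+cDC1 (cDC1), those labelled CD11b+cDC2 (cDC2), the population labelled CD103intCD11b+DC (CD103int DC) and the macrophages. The labels give no mouse strain, age, sort gate or number of animals, and they do not say whether the mice had received the interleukin-15 heterodimer of the study's title. With 1 library per population no difference could be set against replicate error, and none was tested.

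Levels are in CPM, reads per 1000000 on library sizes to which the authors had applied TMM scaling. A row of 4 values always starts with cDC1 and goes on with cDC2, then CD103int DC, then macrophage. A range in brackets is a 95% interval on reads estimated from the step between values. It covers counting error alone, and PCR copies of a molecule were not told apart. A gene was called at least 2-fold apart between 2 libraries when log2(CPM + 1) differed by 1 or more and the larger level was 10 CPM or above. Estimated reads came to 44.4, 44.9, 56.0 and 63.8 times 1000000, so that a level of 10 CPM carried a counting error of 4.17% to 4.64%. The sort marker genes followed the labels, with Itgae (CD103) at 77.0, 1.10, 13.2 and 5.50 CPM and Itgam (CD11b) at 36.7, 638, 688 and 945 CPM. Xcr1, a defining gene of cDC1, was at 130.5 CPM in cDC1 and at most 9.13 elsewhere. Of 6 cDC2 markers only Itgam was at least 2-fold higher in cDC2 than in cDC1, and 4 were lower, Cd209a for 1 (257 CPM in cDC1 and 31.5 in cDC2). Of all genes tested, 9.56% were higher in cDC2 and 7.27% lower. The macrophage column carries another prefix in its name than the other 3, and if that marks a batch, batch and population cannot be told apart. In bulk RNA from a sorted population, fewer cells that carry a transcript and less of it per cell cannot be told apart.

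Most of these receptors are paired. An inhibitory receptor carries tyrosine motifs in its cytoplasmic tail that recruit the phosphatases SHP-1 and SHP-2, while a relative with a similar outer part has a short tail and signals through the adaptors DAP12 or the Fc receptor gamma chain. Sirpa binds CD47 on other cells and restrains phagocytosis, Pirb binds MHC class I, Lilrb4a (gp49B) is a further inhibitory immunoglobulin-like receptor, and Siglece binds sialic acid. Cd300a and Cd300lf are the inhibitory CD300 receptors and recognise membrane lipids of dying cells, whereas Cd300lb, Cd300ld and Cd300e belong to the activating side of the family. Siglec1 (CD169) is a sialic acid receptor of macrophages without such an inhibitory motif, and it is known as a gene induced by type I interferon.

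The 5 CD300 genes lie in 1 cluster on chromosome 11, where Cd300a reads on the plus strand and the other 4 on the minus strand. Of the 10 genes, 7 had a promoter window (250 bases before to 50 after the start) in the RefSeq table for GRCm38.p6. Sirpa, Lilrb4a and Siglec1 had no window and were not searched for motifs. The windows of 2 genes that were low in cDC1, Cd300ld and Cd300lf, are shown with those of 2 that were level, Cd300a and Pirb. Capitals mark AGGAAGT, a form of the core bound by Ets factors such as PU.1, searched on both strands.
Cd300ld: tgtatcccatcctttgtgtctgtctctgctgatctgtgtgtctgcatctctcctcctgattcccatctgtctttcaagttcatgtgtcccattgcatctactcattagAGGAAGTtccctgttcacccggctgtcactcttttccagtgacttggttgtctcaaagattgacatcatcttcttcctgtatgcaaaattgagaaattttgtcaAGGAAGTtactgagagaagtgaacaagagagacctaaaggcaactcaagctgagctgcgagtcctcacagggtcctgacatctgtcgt
Cd300lf: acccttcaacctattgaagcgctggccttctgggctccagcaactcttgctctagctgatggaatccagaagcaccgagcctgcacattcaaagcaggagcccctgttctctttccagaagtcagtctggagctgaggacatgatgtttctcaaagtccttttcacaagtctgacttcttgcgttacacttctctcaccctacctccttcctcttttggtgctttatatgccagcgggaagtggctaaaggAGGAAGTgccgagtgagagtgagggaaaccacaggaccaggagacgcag
Cd300a: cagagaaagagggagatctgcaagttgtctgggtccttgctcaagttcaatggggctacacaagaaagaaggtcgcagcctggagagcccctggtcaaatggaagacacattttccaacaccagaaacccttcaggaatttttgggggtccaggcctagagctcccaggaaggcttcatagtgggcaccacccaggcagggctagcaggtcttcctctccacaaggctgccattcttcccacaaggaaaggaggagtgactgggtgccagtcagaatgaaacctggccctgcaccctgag
Pirb: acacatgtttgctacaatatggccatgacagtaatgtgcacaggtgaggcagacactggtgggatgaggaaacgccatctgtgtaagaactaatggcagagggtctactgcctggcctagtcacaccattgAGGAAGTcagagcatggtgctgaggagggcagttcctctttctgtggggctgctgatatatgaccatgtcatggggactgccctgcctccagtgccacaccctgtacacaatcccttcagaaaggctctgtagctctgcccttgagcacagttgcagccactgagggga
These windows lie at chr11:114989837-114990136 (minus strand), chr11:115133943-115134242 (minus strand), chr11:114889791-114890090 (plus strand) and chr7:3720333-3720632 (minus strand). AGGAAGT stood in 4 of the 7 windows (Cd300e, Cd300ld, Cd300lf and Pirb) and in 9.35% of all 32851 windows of that length. The Cd300ld window held 2 copies, and Cd300a, Cd300lb and Siglece had none. Thus the 7 letters were in windows of genes that were low in cDC1 and of 1 that was level, and missing from windows of both kinds. The interferon-type motif, GAAA repeated after any 2 bases, was in 0 of the 7 windows (3.44% of all), and TTGCNNAA, a form of the C/EBP site, in that of Cd300a (10.8% of all). The motifs and the windows shown were chosen after the levels were known, and a match is a description of the letters only.

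Sirpa was the most abundant of the 10 in each library, also per kilobase of exon. The gene lies at chr2:129592835-129632228 (plus strand; here and for the other genes GRCm38). Its levels were 399.7 (394 to 405), 1062 (1052 to 1071), 837 (830 to 845) and 1212 (1202 to 1221) CPM. The cDC1 library stood apart below the other 3, at 2.66-fold (2.61 to 2.70) under cDC2 and 3.03-fold (2.98 to 3.08) under macrophages. The CD103int DC library exceeded cDC1 by 2.10-fold (2.06 to 2.13), which fell under the 2-fold rule when columns were rescaled to equal totals (0.96 on the log2 scale in place of 1.07). The order of cDC2 and macrophages turned with the same rescaling, so these 2 libraries were not ordered for Sirpa.

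Pirb (chr7:3711409-3720391, minus strand) was nearly level across the dendritic cells. It stood at 309 (304 to 314), 345 (340 to 351), 299.8 (295 to 304) and 476 (471 to 482) CPM, and the highest level was 1.59 times the lowest. The direction of the small gap between CD103int DC and cDC1, and that between cDC1 and cDC2, depended on the scaling or on how related genes were summed. Pirb is 1 of a family of near-identical genes on chromosome 7: of its windows of 50 transcript bases, 34.0% also occurred in other genes, such as Gm14548, Pira2 and Lilra6, and its estimated reads were fractional. Pirb together with Pira2, Lilra6, Gm14548 and Gm15448 summed to 478, 592, 550 and 746 CPM, again with no pair of libraries 2-fold apart.

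Lilrb4a (chr10:51490956-51496611, plus strand) was low in cDC1, intermediate in both CD11b+ dendritic cell libraries and high in macrophages. Its levels were 97.2 (94.4 to 99.98), 330 (324 to 335), 294 (289 to 298) and 605 (598 to 612) CPM. The cDC1 level lay 3.39-fold (3.28 to 3.51) under cDC2 and 6.22-fold (6.04 to 6.42) under macrophages, and the CD103int DC level 2.06-fold (2.02 to 2.10) under macrophages. On the annotation used, Lilrb4a overlaps Gm49339 on the same strand, and 46.7% of its windows of 50 bases were shared with Gm49339 or the neighbouring Lilr4b (gp49A). Summed, these 3 genes stood at 267, 1024, 945 and 1704 CPM. The sum kept the gap of cDC1 to cDC2 (3.83-fold) and narrowed that of CD103int DC to macrophages to 1.80-fold, which ends that call.

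**Figure D1:**
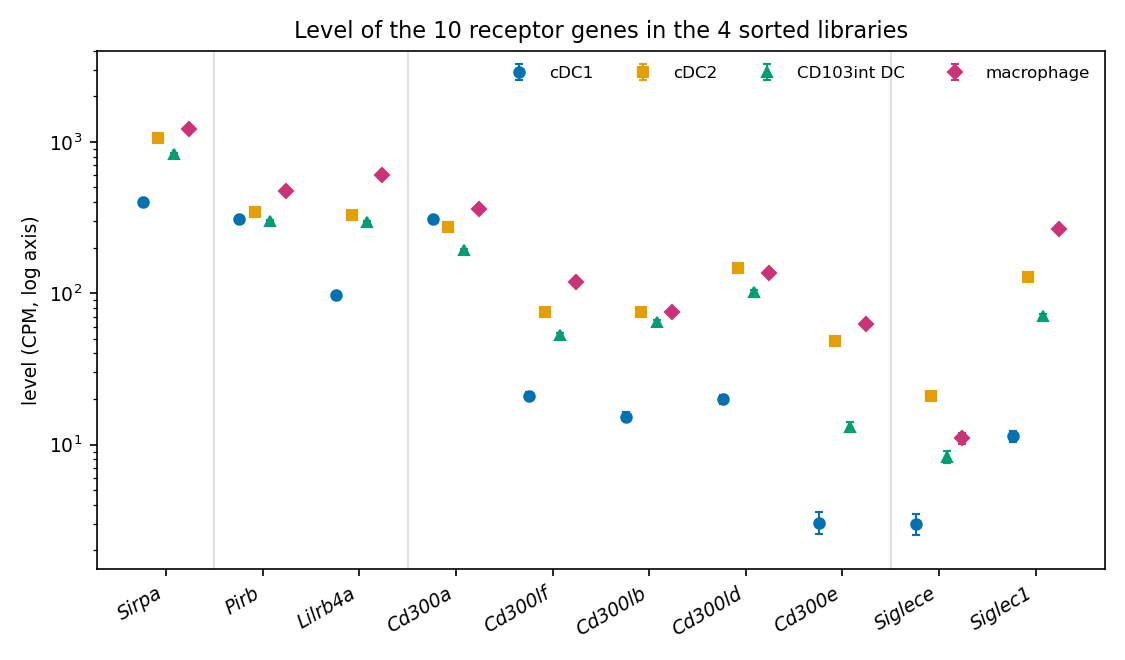
Level of the 10 receptor genes in CPM (log axis) in the 4 libraries, 1 point per library, with bars for the 95% counting interval; grey lines part the SIRP, PIR and LILR, CD300 and Siglec genes. The cDC1 point is the lowest for 8 of the 10 genes, Pirb and Cd300a being the exceptions, and lies at 3.04 CPM for Cd300e and 2.98 CPM for Siglece.

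Cd300a (chr11:114890041-114904654, plus strand), the inhibitory receptor at the edge of the CD300 cluster, was the only CD300 member of the 5 that was not low in cDC1. Its levels were 308 (303 to 313), 275 (269.9 to 279.5), 192 (189 to 196) and 360.2 (355 to 365) CPM. No 2 libraries were 2-fold apart, the widest gap being the 1.87-fold (1.83 to 1.92) between macrophages and CD103int DC, which had the lowest level. Whether cDC1 or macrophages were higher turned with rescaling to equal totals.

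Cd300lf (chr11:115116214-115133992, minus strand), the other inhibitory CD300 member, did not share this pattern. Its levels were 20.998 (19.7 to 22.3), 75.0 (72.5 to 77.5), 53.1 (51.2 to 55.0) and 119 (116 to 122) CPM. The cDC1 library was 3.57-fold (3.33 to 3.83) under cDC2 and 5.65-fold (5.29 to 6.04) under macrophages. The gap between CD103int DC and macrophages, 2.24-fold (2.14 to 2.34), dropped below 2-fold with equal totals (-0.89 on the log2 scale in place of -1.15).

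The activating members were all low in cDC1. Cd300lb (chr11:114922781-114934386, minus strand) stood at 15.3 (14.2 to 16.4), 75.6 (73.1 to 78.1), 64.4 (62.4 to 66.6) and 75.6 (73.3 to 77.9) CPM, and its cDC2 and macrophage levels were the same within counting error (interval of the ratio 0.956 to 1.05). Cd300ld (chr11:114982274-114989922, minus strand) stood at 19.9 (18.6 to 21.2), 147 (143 to 150), 103 (100.03 to 105) and 135 (132 to 138) CPM. In cDC1 they were thus 4.94-fold (4.56 to 5.35) and 7.38-fold (6.90 to 7.90) under cDC2. For both genes the CD103int DC library lay close to cDC2 and macrophages, within 1.43-fold of each.

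Cd300e (chr11:115051917-115062177, minus strand) split the libraries in another way. Its levels were 3.04 (2.57 to 3.57), 48.2 (46.2 to 50.2), 13.1 (12.1 to 14.0) and 62.9 (60.8 to 65.0) CPM, so that cDC2 and macrophages were high, CD103int DC intermediate and cDC1 low. The CD103int DC level was 3.69-fold (3.39 to 4.01) under cDC2 and 4.81-fold (4.45 to 5.21) under macrophages, the widest gap of the 10 genes in each of these 2 comparisons. It was 4.30-fold (3.60 to 5.16) above cDC1. Of 10 monocyte markers, 4 were at least 2-fold lower in CD103int DC than in cDC2 and 0 higher (median -0.80), beside 0.665% and 1.56% of all genes tested. Ace (4.99, 93.8, 19.1 and 433 CPM) and Adgre4 (2.36, 57.2, 19.7 and 195 CPM) had the same order of libraries as Cd300e. Others did not: Vcan was higher in CD103int DC than in cDC2 (1.43, 41.4, 60.6 and 685 CPM), Ly6c2 was at 233, 236, 132 and 1371 CPM, and Plac8 was higher in cDC1 than in cDC2 (486, 218, 128 and 1276 CPM). Cd300e is itself known from monocytes, and the part of such cells in its level was not tested.

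**Figure D2:**
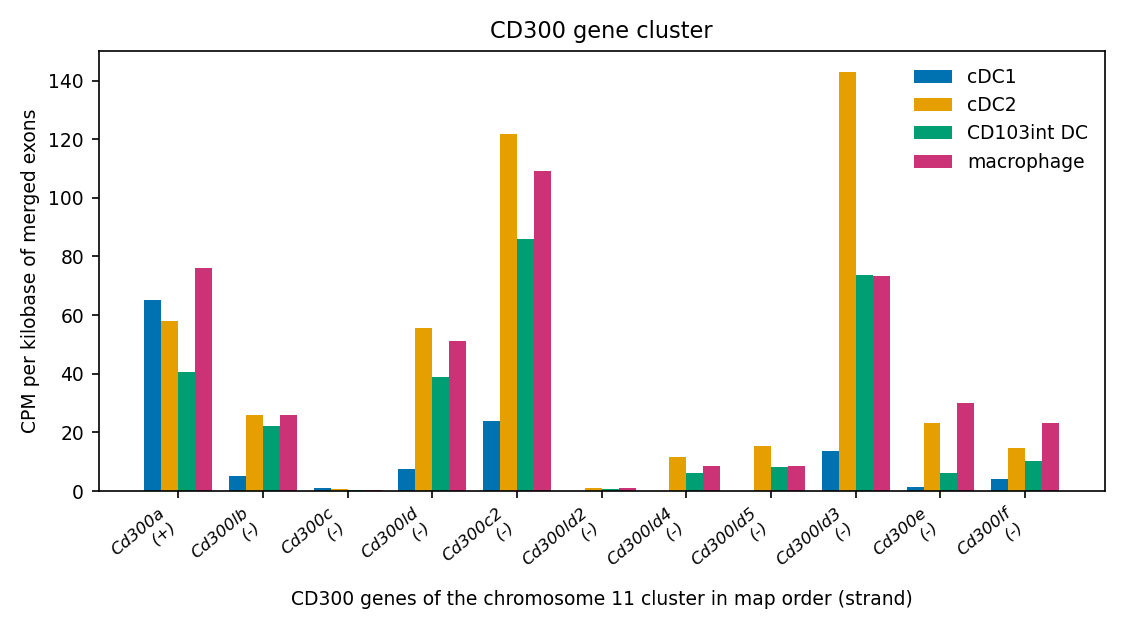
CPM per kilobase of merged exons for the 11 CD300 genes of the chromosome 11 cluster, in map order with their strand, 1 bar per library. In cDC1 the bar of Cd300a (65.1) stands above all its neighbours, the next being Cd300c2 (23.8), while in cDC2 Cd300ld3 (143) and Cd300c2 (122) are the highest.

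Of the other 6 genes of the CD300 cluster, 5 were lowest in cDC1, as the activating members were, and Cd300c was not. The cluster spans chromosome 11 from 114890041 to 115133992 (GRCm38), 244 kilobases in which the annotation places 11 protein-coding genes, all of the CD300 family. Cd300c2 stood at 30.4, 155, 109 and 139 CPM, and Cd300ld3 at 11.6, 122, 62.7 and 62.5 CPM. Cd300ld2, Cd300ld4 and Cd300ld5 were listed at 0 in cDC1 and reached at most 13.2 CPM elsewhere, in cDC2 for Cd300ld5. A value of 0 was more common in the cDC1 column over all genes, with 454 genes at 0 against 19, 10 and 20 in the others. Cd300c stayed below 1 CPM in every library and had its highest value in cDC1 (0.938, 0.604, 0.418 and 0.311 CPM). Per kilobase, Cd300a exceeded Cd300c2 in cDC1 (65.1 against 23.8), and the order was the other way round in cDC2 (58.0 against 122), CD103int DC (40.6 against 85.8) and macrophages (76.0 against 109). Cd300lg, which lies apart on the same chromosome, differed from all of these, with its highest level in CD103int DC (5.65, 5.45, 21.4 and 13.5 CPM). Short stretches are shared inside the cluster. Of the 50-base windows, 3.89% for Cd300ld, 3.18% for Cd300a and 2.29% for Cd300lf occurred in other genes, and none for Cd300e and Cd300lb. The largest share was with Cd300c2 for Cd300a (1.90%) and with Cd300ld for Cd300lf (1.80%). Some other matches of Cd300a and Cd300lf lay outside the cluster.

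Siglece (chr7:43651070-43660161, minus strand) had the lowest CPM of the 10 in each library, in cDC1 within counting error of Cd300e. It stood at 2.98 (2.51 to 3.50), 20.98 (19.7 to 22.3), 8.27 (7.55 to 9.05) and 10.99 (10.1 to 11.9) CPM. Unlike most of the set it was higher in cDC2 than in macrophages, by 1.91-fold (1.72 to 2.12), and it was 2.54-fold (2.27 to 2.84) lower in CD103int DC than in cDC2. Its gap between CD103int DC and cDC1, 2.78-fold (2.30 to 3.37), was not counted because both libraries were under 10 CPM. Its gap between cDC1 and macrophages, 3.69-fold (3.08 to 4.46), was counted, but not with equal totals, which put both libraries under 10 CPM.

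Siglec1 (chr2:131069220-131086765, minus strand) shared the widest range of the 10 with Cd300e, whose macrophage level was 20.7-fold (17.6 to 24.6) that of cDC1. Its levels were 11.4 (10.5 to 12.4), 128 (125 to 131), 71.2 (69.02 to 73.4) and 268 (263 to 272) CPM. Macrophages were 23.5-fold (21.6 to 25.6) above cDC1, 3.76-fold (3.63 to 3.89) above CD103int DC and 2.09-fold (2.03 to 2.15) above cDC2, while cDC2 and CD103int DC were within 2-fold. The gap of cDC2 to macrophages came under 2-fold with equal totals (-0.79 on the log2 scale in place of -1.06). The 14 genes of a type I interferon response list summed to 1771, 2836, 1916 and 8588 CPM, in the same order of libraries as Siglec1. In CD103int DC against macrophages 14 of these 14 were at least 2-fold lower (median -2.29), beside 8.31% of all genes tested. Rsad2 was at 123 against 1184 CPM and Ifit3 at 113 against 657. Within the dendritic cells, 5 of 14 were at least 2-fold lower in cDC1 than in cDC2 (median -0.75), beside 9.56% of all genes tested. In CD103int DC against cDC1, 2 of 14 were at least 2-fold higher (median 0.23), near the 9.16% of all genes tested, and Siglec1 was 6.25-fold (5.72 to 6.84) higher. The part of interferon in the level of Siglec1 was not tested.

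Counted over the set, the cDC1 library lay below the others and the CD103int DC library below cDC2 and macrophages. Against cDC2, 8 of the 10 genes were at least 2-fold lower in cDC1 and 0 higher, where 9.56% of 8459 genes were lower and 7.27% higher. Against macrophages, 8 of 10 were again lower in cDC1 and 0 higher, beside 15.8% and 9.21% of 8468 genes. These 8 were the same in both comparisons, all but Cd300a and Pirb. The median difference over the 10 was -2.01 against cDC2 and -2.34 against macrophages, where that over all genes tested was -0.01 and -0.09. Comparisons that share the cDC1 library are not independent of each other.

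For CD103int DC against cDC1, 7 of the 9 genes with enough signal were at least 2-fold higher and 0 lower, beside 9.16% and 5.46% of 8443 genes. Against cDC2, 2 of 10 were lower (Cd300e and Siglece) and 0 higher, beside 0.665% and 1.56% of 8119 genes. The other 8 were within 2-fold but also below cDC2, by 0.17 (Lilrb4a) to 0.84 (Siglec1) on the log2 scale. Against macrophages, 4 of 10 were at least 2-fold lower in CD103int DC (Cd300e, Cd300lf, Lilrb4a and Siglec1) and 0 higher, beside 8.31% and 4.35% of 8254 genes; with equal totals 2 remained, Cd300e and Siglec1. For cDC2 against macrophages, 1 of 10 was lower (Siglec1) and 0 higher, beside 6.01% and 1.78% of 8141 genes. With equal totals Siglec1 was no longer counted there and Siglece was at least 2-fold higher in cDC2.

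**Figure D3:**
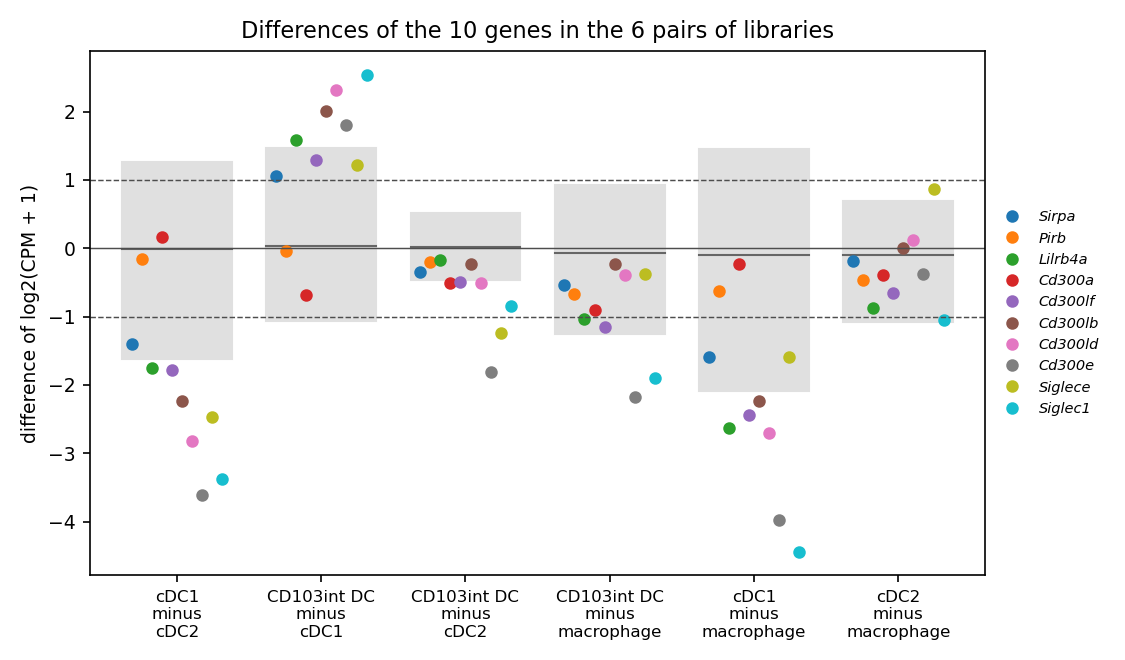
Difference of log2(CPM + 1), first library minus second, for the 10 genes (coloured points) in the 6 pairs of libraries; grey boxes span the 5th to 95th percentile of all genes tested, grey bars mark their median and dashed lines the 2-fold threshold. Pirb and Cd300a lie within the dashed lines in every pair, while Siglec1 and Cd300e reach -4.44 and -3.98 in cDC1 minus macrophage.

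Markers of macrophages were, like most of the set, lowest in cDC1 and lower in CD103int DC than in cDC2, but their order of cDC2 and macrophages was not that of the set. The 11 macrophage markers summed to 795, 4535, 2761 and 4260 CPM. In cDC1 against cDC2 11 of 11 were at least 2-fold lower, beside 9.56% of all genes tested. Adgre1 (F4/80) was at 18.3, 262, 173 and 335 CPM and Csf1r at 409, 1096, 925 and 1538 CPM. Against macrophages, 3 of 11 were at least 2-fold higher in cDC2 and 0 lower, beside 1.78% and 6.01% of all genes tested. In CD103int DC against macrophages 3 were higher and 4 lower, beside 4.35% and 8.31%. Those higher were the complement genes C1qa (36.7, 572, 228 and 105 CPM), C1qb and C1qc, while 0 of the 10 receptor genes were higher in either comparison. In CD103int DC against cDC2, 3 of 11 were at least 2-fold lower, beside 0.665% of all genes tested. Apoe was among these 3 (67.5 against 175 CPM). Monocyte markers summed to 1478, 1957, 1723 and 6474 CPM. In cDC1, cDC2 and CD103int DC alike, 8 of 10 were at least 2-fold lower than in macrophages and 0 higher. Beside this, 15.8%, 6.01% and 8.31% of all genes tested were lower and 9.21%, 1.78% and 4.35% higher. The 3 of 8 neutrophil markers analysed here summed to 12.0, 68.8, 39.5 and 170 CPM, most of it Csf3r, which monocytes also express. T cell and NK cell markers summed to at most 12.2 and 11.7 CPM in any library. The part of macrophages or monocytes inside the dendritic cell gates, or of monocytes inside the macrophage gate, in the receptor levels was not tested.

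Within a library, the balance of a receptor gene and its activating relatives can be read without any scaling between libraries. In cDC1, Cd300a had 8.06 (7.69 to 8.46) times the CPM of Cd300lb, Cd300ld and Cd300e together. In the other 3 libraries, in the order above, the same ratio was 1.02 (0.991 to 1.04), 1.07 (1.04 to 1.10) and 1.32 (1.29 to 1.345), so that cDC1 stood apart. These ratios of CPM are not corrected for exon length. Per kilobase of exon the ratio was 4.575, 0.555, 0.604 and 0.71, so that Cd300a exceeded these relatives together in cDC1 only. The cluster genes Cd300c2 and Cd300ld3 were not in this sum. They too were lowest in cDC1, but at 23.8 and 13.6 CPM per kilobase they exceeded Cd300ld (7.515), Cd300lb (5.249) and Cd300e (1.455) there. The size of the Cd300a ratio therefore depends on which relatives are summed. The Sirpa gene against its activating relatives Sirpb1a, Sirpb1b and Sirpb1c gave a like picture, at 12.0 (11.4 to 12.6), 3.504 (3.44 to 3.57), 3.796 (3.72 to 3.87) and 2.64 (2.60 to 2.68). Per kilobase the Sirpa ratio was 6.96, 2.17, 2.39 and 1.67. Behind it were Sirpb1c at 11.7, 171, 131 and 272 CPM, Sirpb1a at 11.2, 81.7, 51.8 and 101 CPM and Sirpb1b at 10.4, 50.4, 37.8 and 85.5 CPM. The Sirpb1 genes resemble each other, and a misplacement of reads among these 3 does not enter their sum.

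Pirb set against its relatives showed less of this. Over Pira2 alone, its activating counterpart (71.2, 154, 153 and 163 CPM), the ratio was 4.34 (4.18 to 4.504), 2.23 (2.17 to 2.30), 1.96 (1.91 to 2.01) and 2.92 (2.85 to 2.996). Over Pira2, Lilra6, Gm14548 and Gm15448 together it was 1.83 (1.78 to 1.88), 1.40 (1.37 to 1.43), 1.20 (1.17 to 1.22) and 1.76 (1.73 to 1.80), with cDC1 beside macrophages. Per kilobase the ratio over Pira2 was 3.36, 1.73, 1.515 and 2.26. Over these relatives together it was 1.07, 0.906, 0.7725 and 1.15 per kilobase. Gm14548 ran against the rest, at 74.4, 58.0, 62.6 and 57.2 CPM. Lilrb4a over Lilr4b stayed between 0.731 and 0.941 in all 4 libraries.

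**Figure D4:**
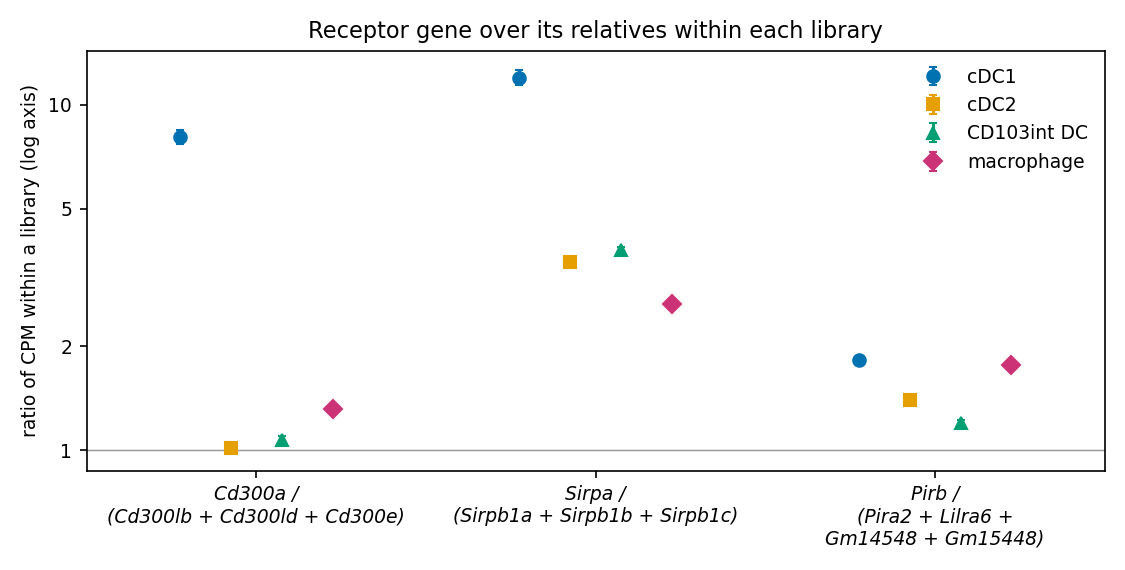
Ratio of the CPM of a receptor gene to the summed CPM of its relatives within each library (log axis), with 95% counting intervals. CPM was not divided by exon length here, and the relatives of Cd300a do not include Cd300c2 and Cd300ld3. The cDC1 point stands at 8.06 for Cd300a and 12.0 for Sirpa, against at most 1.32 and 3.796 in the other libraries, and at 1.83 for Pirb, beside 1.76 in macrophages.

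Most signalling partners of these receptors were within 2-fold between the libraries. Ptpn6, which encodes SHP-1, was at 328, 425, 315 and 549 CPM, Ptpn11 (SHP-2) at 87.0, 86.8, 96.5 and 122 CPM and the lipid phosphatase gene Inpp5d (SHIP-1) at 419, 291, 302 and 370 CPM. Of 16 phosphatase, kinase and docking genes with enough signal, 4 were at least 2-fold lower in cDC1 than in cDC2 and 0 higher (median -0.39), beside 9.56% and 7.27% of all genes tested. The docking gene Dok3 was at 7.91, 34.3, 21.1 and 59.9 CPM, Dok2 at 111, 239, 320 and 161 CPM and Dok1 at 29.5, 66.9, 58.9 and 52.2 CPM.

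The adaptors of the activating receptors were lower in cDC1 but well expressed there. Tyrobp, which encodes DAP12, stood at 229, 402, 348 and 453 CPM, and Fcer1g, the Fc receptor gamma chain, at 139, 396, 301 and 397 CPM. In the list that also holds other receptors using them, 7 of 9 genes were at least 2-fold lower in cDC1 than in cDC2 and 0 higher (median -1.51), beside the same shares of all genes. Trem1 was at 3.22, 30.8, 26.4 and 59.8 CPM and Trem2 at 0.979, 25.0, 21.6 and 9.84 CPM. Trem3 was listed at 0 in cDC1 and stood at 12.5, 5.23 and 26.8 CPM in the others, and Pilrb2 at 1.67, 20.5, 13.8 and 18.6 CPM.

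Of 11 genes of a list of other inhibitory receptors with enough signal, 8 were at least 2-fold lower in cDC1 than in cDC2 and 0 higher (median -1.47), beside 9.56% and 7.27% of all genes tested. Against macrophages 7 were lower in cDC1 and 2 higher (Klrb1b and Cd200r1), beside 15.8% and 9.21% of all genes tested. Cd200r1, which inhibits without the tyrosine motif of the others, was as high in cDC1 as in CD103int DC (104, 71.4, 104 and 36.0 CPM). Clec4a2 (DCIR) was at 15.6, 144, 163 and 104 CPM and Pilra at 24.6, 154, 126 and 115 CPM. Ceacam1 was highest in macrophages (8.70, 19.2, 17.6 and 71.9 CPM), and Klrb1b was lowest there (74.1, 115, 144 and 25.9 CPM). Neither was alone in this among the genes of the list. In CD103int DC against macrophages the list was split, with 2 of 11 higher and 2 lower, beside 4.35% and 8.31% of all genes tested. Of 5 other Siglec genes with enough signal, 1 was at least 2-fold higher and 2 lower in cDC1 than in cDC2, beside 7.27% and 9.56%. Siglech, known from plasmacytoid dendritic cells, was highest in cDC1 (15.0, 1.38, 0.366 and 0.733 CPM), Siglecg was at 10.7, 5.30, 6.03 and 10.8 CPM, Cd22 at 3.87, 13.6, 7.89 and 7.73 CPM and Mag at 2.55, 17.1, 18.9 and 3.96 CPM.

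The list of ligand and partner genes held 10, of which 8 had enough signal in every comparison and the others stayed under 10 CPM throughout. Cd47, the ligand of Sirpa, stood at 424, 320, 324 and 517 CPM, with no 2 libraries 2-fold apart. B2m, the light chain of the MHC class I ligands of Pirb, was at 1089, 2147, 1550 and 2139 CPM. Cd24a, whose product carries sialic acid and binds Siglec receptors, was at 241, 24.9, 151 and 30.5 CPM, high in cDC1 and CD103int DC. Spn (CD43), a sialic acid bearing partner of Siglec1, was at 108, 136, 91.6 and 150.4 CPM. Among 12 genes of sialic acid handling with enough signal, 2 were at least 2-fold higher and 3 lower in cDC1 than in cDC2 (median 0.35), beside 7.27% and 9.56% of all genes tested. St8sia4, which builds polysialic acid, was at 245, 83.2, 94.1 and 121 CPM, and the sialidase gene Neu1 at 19.3, 49.8, 43.4 and 69.7 CPM. Gne, at the start of sialic acid synthesis, was at 28.7, 15.6, 13.4 and 9.38 CPM, and St6galnac6 at 6.34, 16.4, 24.1 and 15.2 CPM.

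The protein-coding genes with the most similar profiles were found for each of the 10 by the distance between centred log2(CPM + 1) values over the 4 libraries, among 8440 genes. Profiles of 4 points are met by many genes, so this is a description only. Sirpa was nearest to Milr1 (Allergin-1, another inhibitory receptor; distance 0.0468) and the Toll-like receptor gene Tlr6 (0.0595). Pirb was nearest to Stk16 (0.032) and Mier1 (0.0342), and Cd300a to Sco1 (0.0476) and Fyco1 (0.0777). Lilrb4a was nearest to Cdc42ep2 (0.091) and the inflammasome gene Nlrp3 (0.126; 66.3, 203, 189 and 371 CPM). Cd300ld was nearest to the lysosomal lipase gene Pla2g15 (0.0896) and to Pilrb2 (0.151), Cd300lf to Lgals8 (0.114) and Gdf15 (0.13), and Cd300lb to the cholesterol exporter gene Abca1 (0.133) and Aldh3b1 (0.143). The profiles of Cd300e, Siglece and Siglec1 had more distant neighbours. Cd300e was nearest to the formyl peptide receptor gene Fpr1 (0.255) and Apoe (0.339), Siglece to Acp5 (0.226) and Creg2 (0.281), and Siglec1 to Nupr1 (0.243) and Klra2 (0.271).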

How the data were processed

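RNA from 4 sorted populations was sequenced, with 1 library each; per the labels' protocols, total RNA was column-purified with DNase I digestion before directional library preparation. The authors deposited 1 table of expression signal; its name describes it as filtered CPM with TMM (trimmed mean of M values) scaling. The macrophage column summed to 1169346, more than plain CPM can reach. The sources used here do not name the aligner, counter, strand setting or genome build. All 13976 identifier and symbol pairs matched GENCODE M21 (GRCm38), which gave coordinates, exon lengths and transcripts, and promoter windows came from RefSeq (GRCm38.p6).

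The finest step between low values was taken as 1/100 of a read, and 70.6% to 79.0% of values above 0 were whole reads (tolerance 0.001). Poisson intervals on levels and binomial intervals on ratios were computed from these estimated reads. Estimated reads of 5 members were whole in all libraries (tolerance 0.01). No count test was run, since reads were fractional and no population had a replicate. Libraries were compared in 6 pairs by the 2-fold rule on log2(CPM + 1), with a minimum of 10 CPM, and the same rule over all genes gave the background shares. The rule was tested on simulated data with counting noise alone and planted differences well above 2-fold. That simulation does not cover calls near 2-fold or replicate variation. The script used Python 3.11.15, numpy 2.4.6, scipy 1.17.1 and pandas 2.3.3.

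The 10 genes and the lists were chosen with earlier results of these data known. Named besides the 10 were the 2 nearest genes of each, up to 4 genes per list with the widest range among those reaching 10 CPM, 6 partner genes (Cd47, Ptpn6, Ptpn11, Inpp5d, Tyrobp and Fcer1g) and the sort markers with Csf1r; Cd300 cluster genes, Gm14548, Gm15448, Gm49339, Plac8, Cd200r1 and the C1q genes were added after their values were seen. Ace and Adgre4 were named by the list rule, and 1 gene that the rule names is not reported here. Alternatives changed the pseudocount, the minimum level and the scaling between columns. The 2 gene models Gm26917 and Gm42418 held 5.94% to 12.5% of the columns.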

Additional observations from a re-analysis of the deposited data

How the results depend on the processing

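Of 108 counts of genes at least 2-fold apart (12 counts under 9 alternatives), 98 stayed within 1.5 times their value. Many of these 98 were counts of 0 that stayed at 0. A count within this limit could still lose a gene, as Sirpa with equal totals in CD103int DC against cDC1 (6 higher in place of 7). Siglece left the count of genes lower in CD103int DC than in cDC2 with a pseudocount of 5 (1 in place of 2). Equal totals, equal protein-coding totals and equal totals without the highest 100 genes each gave 2 in place of 4 genes lower in CD103int DC than in macrophages (Cd300e and Siglec1). Each of these 3 also gave 1 gene higher (Siglece) and 0 lower in cDC2 than in macrophages, in place of 0 and 1. These scalings moved the median difference of all genes against macrophages to between 0.112 and 0.29, from between -0.0916 and -0.0717, so gaps to macrophages near 2-fold depend on the scaling. Under them Sirpa in CD103int DC against cDC1 was 0.888 to 0.963 in place of 1.07 on the log2 scale. No called difference changed direction. Of 540 differences of the 10 genes under the alternatives, 11 changed sign, all of them under 2-fold (Cd300a, Cd300lb, Pirb and Sirpa). Adding the genes that share sequence to Lilrb4a and Pirb, an alternative chosen after seeing the data, removed Lilrb4a from the genes lower in CD103int DC than in macrophages (-0.85). No paired analysis was possible because each population had 1 library, and for the same reason no library could be left out. Depth was not limiting above 10 CPM, where counting error was at most 4.64%; replicate variation is unknown.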
